A study of Rattus norvegicus with 23 samples.

Results

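The calcium-activated potassium channels of the afterhyperpolarization were examined in the dorsal hippocampus of young, aged and FKBP1b-treated rats. The members are the genes of the SK and BK channel subunits, Kcnn1, Kcnn2, Kcnn3, Kcnn4, Kcnma1, Kcnmb1, Kcnmb2 and Kcnmb4, and a probe set was taken as a member where the array annotation gives it a single symbol from that list. Of the 8 listed genes, 7 have such a probe set, 1 each, among 14503 genes named in this way. All 7 passed the signal minimum (at least 40 on at least 4 arrays) and none had a blank value. Kcnn2, the SK2 subunit, is named by no probe set and was not analysed here.

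When a neuron fires, calcium enters through voltage-gated channels and is released from internal stores through ryanodine receptors. Calcium bound to calmodulin opens SK channels, and calcium together with depolarization opens BK channels, and the potassium that leaves holds the cell back from firing again. In hippocampal pyramidal cells the afterhyperpolarization as a whole grows with age, and FKBP1b, a small immunophilin that binds ryanodine receptors, limits the calcium release that feeds it. Which channels carry the part that grows was not measured here.

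RNA of 23 male F344 rats was measured on Rat Gene 1.0 ST arrays (Affymetrix), 1 for each animal, and the deposited values are unlogged Robust Multiarray Average (RMA) signals. The LT group (6 rats, 21 months old) carried the FKBP1b vector for the long term, the ST group (6 rats, 21 months) carried it for the short term, the AC group (5 rats, 21 months) carried an eGFP vector, and the YC group (6 rats) was 5 to 6 months old. In both vectors the CaMKII promoter, active in excitatory neurons, drove the transgene, which was placed in the CA1 region of both sides, while the RNA came from all of the dorsal hippocampus. Labels and series text differ on the age at injection, 12 or 13 months for LT, 18 or 19 months for ST and 18 or 13 months for AC. The YC rats are labelled sham and had no injection in the study's methods, so age, surgery and vector cannot be told apart between AC and YC. Between treated rats and YC, age, surgery, vector and transgene cannot be told apart. The eGFP vector had the higher titer, so transgene and titer cannot be told apart between treated and AC rats, and treated rats had been chosen for high Fkbp1b expression within their groups.

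Median signals per array ran from 138 to 141 in LT, from 134 to 140 in ST, from 134 to 141 in AC and from 137 to 141 in YC, and the RNA integrity number was at least 8.9 throughout. Fkbp1b signals were 843 to 1217 in LT, 427 to 881 in ST, 364 to 458 in AC and 353 to 411 in YC. They come from probe set 10940524, which the annotation used here gives that symbol. The study states that the array lacks a probe set for this gene, and measured it by qRT-PCR. The choice of treated rats by this gene favoured the check below. The check of the labels passed for LT against AC (log2 difference 1.31, adjusted p = 8.95e-06 from limma), while ST overlapped AC and did not pass (0.76, adjusted p = 0.0851). AC replicate 5 stood apart from the other 22 arrays. Its signal was 580 for Wfs1, a marker of CA1 pyramidal cells, against 2444 to 2996 elsewhere. Among further CA1 markers, Pou3f1 was also lower (173 against 241 to 306), but Fibcd1 was higher (905 against 550 to 693). Prox1, a marker of dentate granule cells, was 333 against 632 to 950 elsewhere. The choroid plexus score, the mean log2 signal of 8 of 9 marker genes centred on all arrays, was 0.66, 2.61 and 2.69 on LT replicates 1, 2 and 5 and 2.64 and 3.10 on AC replicates 3 and 4, and no other array exceeded 0.5, so these 5 arrays are called choroid-rich. In bulk tissue, fewer cells of a type and less RNA per cell cannot be told apart.

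Of the SK and BK genes, 1 differed between groups beyond the spread of the arrays, and 6 did not pass the test. Group means were compared with limma on log2 signals, and p values were adjusted over 13339 probe sets, with a call at an adjusted p under 0.05. The gene that passed was Kcnmb1, the BK beta 1 subunit, which was lower in ST than in YC rats by 0.39 on the log2 scale. No SK or BK gene passed between AC and YC, ST and AC, LT and AC, both treated groups averaged and AC, LT and ST, or LT and YC. The number of arrays limits the precision, and each difference of a channel gene is given with its 95% interval.

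**Figure D1:**
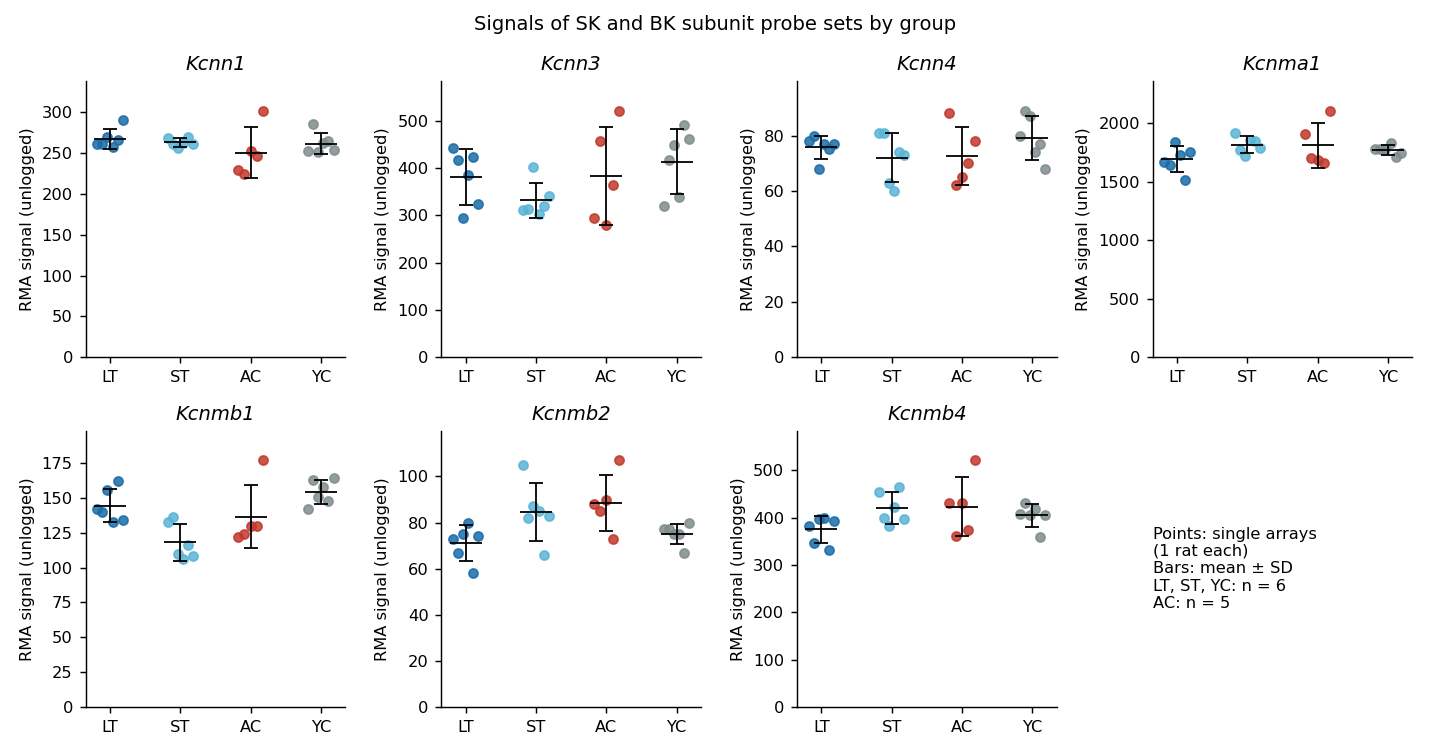
Unlogged RMA signal (vertical axes from 0) of the 7 SK and BK probe sets in LT, ST, AC and YC rats. Each point is 1 rat's array, and bars give the mean ± SD (n = 6, 6, 5 and 6). Kcnmb1 ran from 106 to 136 in ST, below the YC range of 142 to 164, and the highest AC point in 6 of the 7 panels is AC replicate 5.

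The counts of calls are best read against all probe sets. Between AC and YC, 0 of 7 members were called where 9.75% of all tested probe sets were, and 2 of 7 had an unadjusted p under 0.05 (background 27.4%). For ST against AC the counts were 0 (background 0%) and 1 (9.82%), for LT against AC 0 (0.075%) and 2 (12.6%), and for the 2 treated groups averaged against AC 0 (0.03%) and 1 (10.5%). For LT against ST they were 0 (0.0075%) and 3 (12.4%), for LT against YC 0 (1.03%) and 0 (13.4%), and for ST against YC 1 (4.15%) and 2 (21.7%). The moderated F test over the 4 groups called 1 of 7 (5.46%), again Kcnmb1, and 2 had an unadjusted p under 0.05 (24.2%). The members' median log2 difference was -0.07 for AC against YC, beside -0.0062 for all probe sets, and 0.0086 for ST against YC, beside 0.0050.

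**Figure D2:**
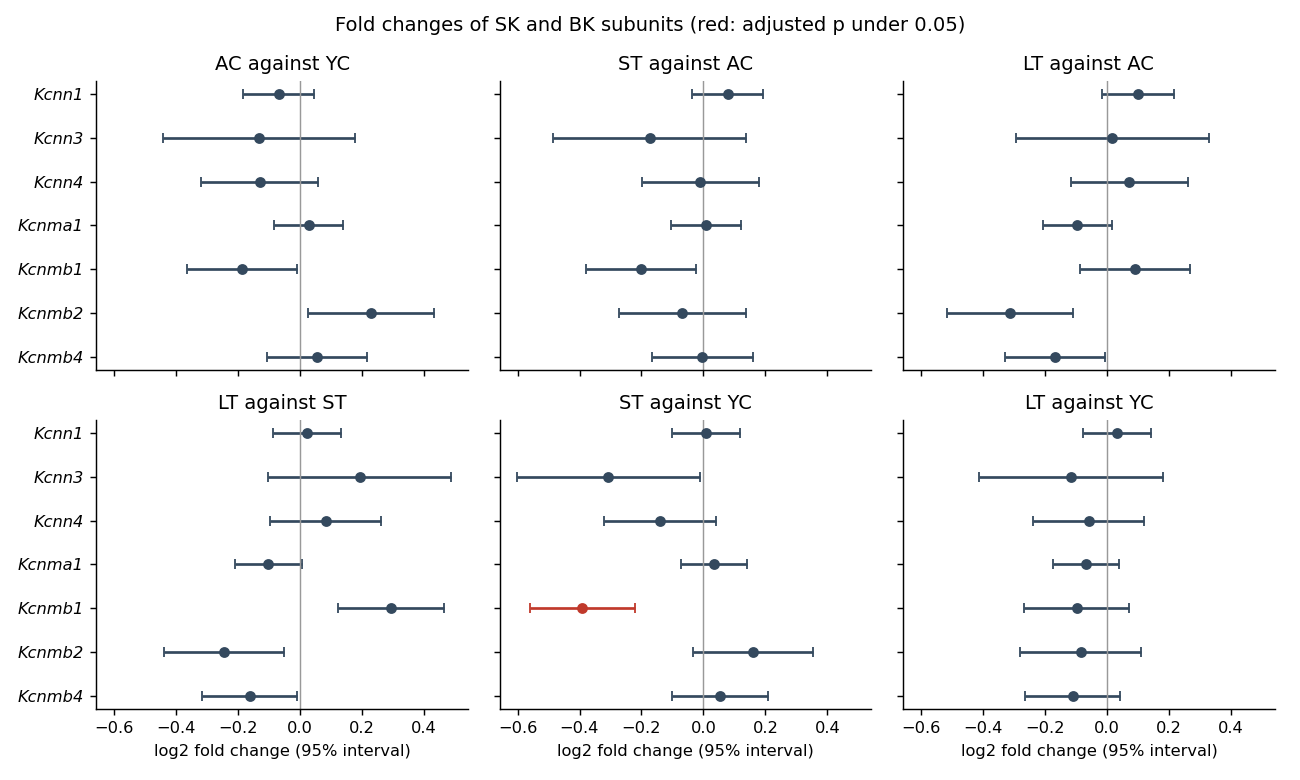
Log2 fold changes (points) and their 95% intervals from limma (bars) for the 7 genes in 6 comparisons, with the first-named group over the second. Red marks an adjusted p under 0.05, reached by Kcnmb1 alone, at -0.39 for ST against YC.

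Kcnmb1 encodes the BK beta 1 subunit, best known from smooth muscle, where it raises the calcium sensitivity of the channel. Its probe set (10732716) read 106, 113 and 136 as the lowest, median and highest signal in ST rats, against 142, 154.5 and 164 in YC rats. Every ST array lay below every YC array, a separation shown by 4.72% of all tested probe sets. LT rats had 133, 141 and 162, and AC rats had 122, 124, 130, 130 and 177, so LT arrays overlapped those of YC and 4 of the 5 AC arrays lay below all of YC.

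Kcnmb1 was lower in ST than in YC at 0.763 times its level (log2 fold change -0.39, 95% interval -0.56 to -0.22, adjusted p = 0.0104 from limma). Age, surgery, vector and transgene cannot be told apart in this difference. The call held in each of 38 alternative analyses, at adjusted p values of 0.00029 to 0.0298, among them the fit that left out AC replicate 5 (0.000819) and the fit that left out the 5 choroid-rich arrays. The LT minus ST difference was 0.29 (interval 0.12 to 0.46, adjusted p = 0.169), and 4 of 6 LT arrays exceeded all ST arrays. ST was -0.20 from AC (interval -0.38 to -0.02, adjusted p = 0.469) and LT was 0.09 from AC (interval -0.09 to 0.27, adjusted p = 0.673). AC was -0.19 from YC (interval -0.37 to -0.01, adjusted p = 0.159), and without AC replicate 5 this difference was -0.29 and passed (adjusted p = 0.0145). The F test (adjusted p = 0.0254) missed the threshold without ST replicate 3, 4 or 6 or YC replicate 2 or 6. It also missed the threshold without the 5 choroid-rich arrays. So did a one-way analysis of variance of unlogged signals, judged here by adjusted p values. The study called genes by unadjusted p values in its one-way analysis of variance, so that miss is not one by the study's own criterion.

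Marker genes of other cell types moved between the same groups. The microglial score ran from -0.07 to 0.37 in ST, above the YC range of -0.33 to -0.27, with 4 of its 7 genes called higher, and the endothelial score from -0.04 to 0.03, above -0.19 to -0.16 in YC, with 0 of 5 called and 4 at an unadjusted p under 0.05. The choroid plexus score was -1.16 to -0.68 in ST and -0.70 to -0.33 in YC, with 0 of 8 genes called. The astrocyte score overlapped, at -0.06 to 0.09 in ST and -0.09 to -0.00064 in YC, with Gfap called higher in ST (log2 fold change 0.42, adjusted p = 0.00365) and 4 of its 5 genes not called. The vascular smooth muscle score overlapped, at -0.06 to 0.11 in ST and -0.12 to 0.03 in YC. Of its 5 genes, Tagln was called higher in ST (log2 fold change 0.35, adjusted p = 0.0111), and Acta2, Myh11, Cnn1 and Myl9 were at -0.09 to -0.0034. The dimmest of the microglial, endothelial and smooth muscle markers, Cnn1, read at least 69 on every array. Over 23 arrays, Kcnmb1 had Pearson r = -0.57 with the CA1 pyramidal cell score (permutation p = 0.0011, adjusted p = 0.01). With the dentate granule cell score r was -0.59 (permutation p = 0.00095, adjusted p = 0.01). Neither passed within groups (r = -0.69 and -0.64, adjusted p = 0.12 and 0.18). With the smooth muscle score r was 0.14 (adjusted p = 0.71). The part of these cell types in the Kcnmb1 result was not tested. Kcnmb1 overlaps Kcnip1, a potassium channel interacting protein, in the RefSeq annotation. The 2 tested Kcnip1 probe sets differed between ST and YC by -0.14 (10940482, adjusted p = 0.336) and -0.10 (10741956, adjusted p = 0.627). Between AC and YC they differed by -0.30 (10940482, adjusted p = 0.0319, called) and -0.26 (10741956, adjusted p = 0.118).

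The remaining BK beta genes did not pass in any comparison. Kcnmb2, whose protein inactivates the channel, had 58, 73.5 and 80 as lowest, median and highest signal in LT rats, 66, 84 and 105 in ST rats, 73, 85, 88, 90 and 107 in AC rats, and 67, 76 and 80 in YC rats. Of the 5 AC arrays, 4 lay above the whole LT and YC ranges, at signals not far above the minimum. The log2 difference was -0.31 for LT against AC (interval -0.52 to -0.11, adjusted p = 0.185), -0.24 for LT against ST (interval -0.44 to -0.05, adjusted p = 0.299) and 0.23 for AC against YC (interval 0.02 to 0.43, adjusted p = 0.136). With the choroid plexus score as a covariate, the AC minus YC difference was 0.32 and passed (adjusted p = 0.0467).

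Kcnmb4 encodes beta 4, the main beta subunit of neurons, which slows the opening of BK channels. Its signal was 332, 387.5 and 400 in LT (lowest, median and highest), 383, 410.5 and 464 in ST, 361, 374, 430, 431 and 521 in AC, and 359, 407 and 431 in YC. The 4 ranges overlapped. LT minus AC was -0.17 (interval -0.33 to -0.0041, adjusted p = 0.381) and LT minus ST was -0.16 (interval -0.32 to -0.0087, adjusted p = 0.375).

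The pore-forming BK subunit, Kcnma1, varied little. Its probe set read 1517, 1703 and 1845 in LT (lowest, median and highest), 1722, 1816.5 and 1921 in ST, 1659, 1691, 1702, 1909 and 2110 in AC, and 1714, 1780.5 and 1835 in YC, with a coefficient of variation of 10.6% within AC and 2.30% within YC. AC minus YC was 0.03 (interval -0.09 to 0.14, adjusted p = 0.787), LT minus AC was -0.09 (interval -0.21 to 0.02, adjusted p = 0.473) and LT minus ST was -0.10 (interval -0.21 to 0.0048, adjusted p = 0.418). Across all 7 comparisons the Kcnma1 intervals stayed within -0.21 and 0.14.

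Kcnma1 and Kcnmb4 varied together from rat to rat. Over 23 arrays their log2 signals correlated at Pearson r = 0.88 (permutation p = 1e-05, the smallest that 100000 resamples can give, adjusted p = 0.00056) and Spearman rho = 0.77 (permutation p = 6e-05, adjusted p = 0.0017), with adjustment over 112 relations. After group means were removed r was 0.85 (adjusted p = 0.0011). It was 0.75 without the pair of arrays farthest from the Kcnma1 median, and 0.82 without AC replicate 5. Kcnmb2 and Kcnma1 gave r = 0.69 (permutation p = 0.00039, adjusted p = 0.0062) and rho = 0.47 (p = 0.025, adjusted p = 0.12). Over all arrays this relation depends in part on a few arrays, as r was 0.39 without the 2 farthest and 0.58 without AC replicate 5. Within groups it was 0.64 (adjusted p = 0.045), and 0.52 when AC replicate 5 was also left out. Of 21 pairs among the 7 genes, these 2 passed within groups. Kcnma1 and Kcnmb4 also went with marker gene scores given below, whose part in their relation was not tested.

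**Figure D3:**
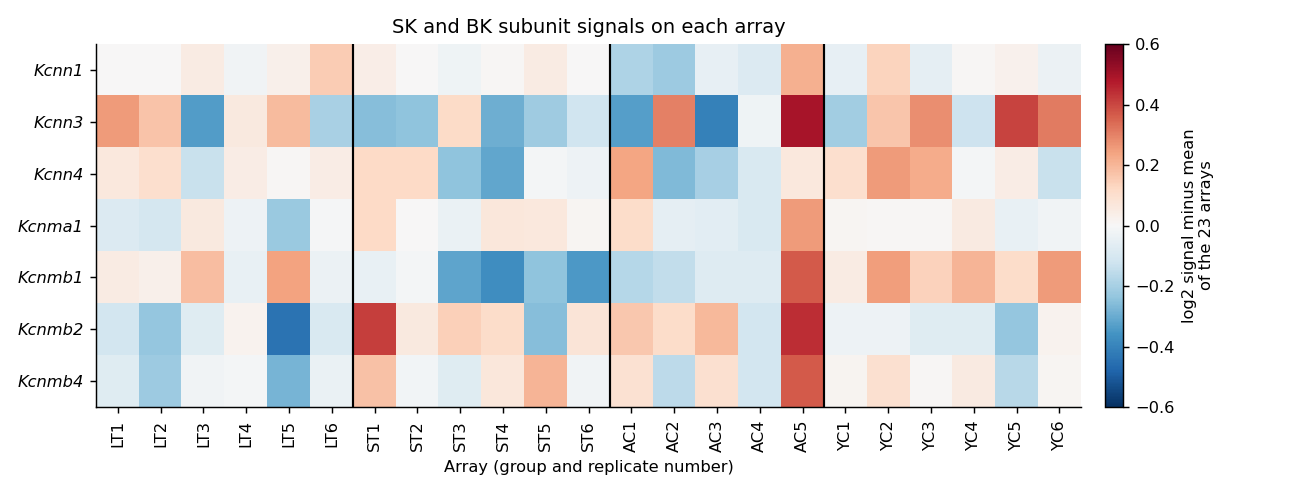
Log2 signal of each gene minus its mean over 23 arrays, with 1 column for each array in the order LT, ST, AC and YC (black lines divide groups). AC replicate 5 is highest in 6 of 7 genes, LT replicate 5 is lowest in 3 (Kcnma1, Kcnmb2 and Kcnmb4), and the ST columns are low for Kcnmb1.

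The extremes of these genes were gathered on a few arrays. AC replicate 5 had the highest of all 23 signals in 6 of 7 genes, all but Kcnn4, and LT replicate 5, one of the choroid-rich arrays, had the lowest in Kcnma1, Kcnmb2 and Kcnmb4. The part of cell composition in these values was not tested.

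To show the stretch of DNA that goes with the pair of co-varying BK genes and with Kcnmb1, the 250 bases before the annotated start are printed from RefSeq (build GRCr8), where 5 of the 7 measured genes matched. Capitals mark GC boxes, printed as GGGCGG or as CCGCCC, which is GGGCGG on the other strand, with overlapping copies counted separately.
Kcnma1 (chr15:351675-351924, plus strand): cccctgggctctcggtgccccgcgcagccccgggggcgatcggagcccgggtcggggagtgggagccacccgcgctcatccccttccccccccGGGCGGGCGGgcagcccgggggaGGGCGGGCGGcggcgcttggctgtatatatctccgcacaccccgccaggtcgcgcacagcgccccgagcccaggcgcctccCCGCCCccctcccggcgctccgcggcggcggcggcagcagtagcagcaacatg
Kcnmb4 (chr7:54005102-54005351, minus strand): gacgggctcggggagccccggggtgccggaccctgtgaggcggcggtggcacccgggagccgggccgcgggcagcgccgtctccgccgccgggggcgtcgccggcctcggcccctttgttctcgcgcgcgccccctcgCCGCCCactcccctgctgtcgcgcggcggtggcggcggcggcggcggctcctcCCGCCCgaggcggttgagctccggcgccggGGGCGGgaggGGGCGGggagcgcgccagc
Kcnmb1 (chr10:19061849-19062098, plus strand): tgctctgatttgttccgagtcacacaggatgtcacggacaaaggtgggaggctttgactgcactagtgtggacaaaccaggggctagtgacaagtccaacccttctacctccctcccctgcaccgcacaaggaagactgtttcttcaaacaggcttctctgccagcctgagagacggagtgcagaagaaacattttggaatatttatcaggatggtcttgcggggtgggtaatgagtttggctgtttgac
The Kcnma1 stretch holds 5 GC boxes (4 as GGGCGG, in 2 overlapping pairs, and 1 as CCGCCC) and the Kcnmb4 stretch holds 4, at 79.6% and 84.4% G and C. The Kcnmb1 stretch holds 0, as do those of Kcnn3 and Kcnmb2, at 50.8%, 57.2% and 44.8%. At least 1 GC box lies in 30.5% of 33469 such promoters, whose median is 51.2% G and C.

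Among SK genes, Kcnn3 (SK3) spread most widely. Its signal was 294, 402 and 443 in LT (lowest, median and highest), 303, 317 and 402 in ST, 280, 295, 364, 457 and 522 in AC, and 321, 433.5 and 492 in YC. The groups overlapped, with 4 of 6 ST arrays below the whole YC range. ST minus YC was -0.31 (interval -0.60 to -0.01, adjusted p = 0.215), LT minus ST was 0.19 (interval -0.10 to 0.49, adjusted p = 0.580) and AC minus YC was -0.13 (interval -0.44 to 0.18, adjusted p = 0.600).

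The Kcnn3 signal went with several marker gene scores from rat to rat, which were not separated from one another. Against the dentate granule cell score (Prox1 and C1ql2, 2 of 4 listed genes), Pearson r was -0.75 (permutation p = 1e-05, adjusted p = 0.00056) and Spearman rho was -0.88 (permutation p = 1e-05, adjusted p = 0.00056). Within groups r was -0.76 (adjusted p = 0.0017), and r was -0.89 without the 2 farthest arrays and -0.84 without AC replicate 5. Against the interneuron score (Gad1, Gad2, Slc32a1, Pvalb, Sst, Vip and Lhx6, 7 of 7 genes, weighted equally), r was 0.73 (permutation p = 0.0001, adjusted p = 0.0028). Its rho was 0.76 (permutation p = 1e-05, adjusted p = 0.00056), with r = 0.74 within groups (adjusted p = 0.011) and 0.67 without the 2 farthest arrays. The scores of the groups overlapped, with 0.03 to 0.20 in ST and -0.30 to 0.12 in YC for dentate granule cells and -0.08 to 0.06 in ST and -0.08 to 0.21 in YC for interneurons, and their part in the ST minus YC value of Kcnn3 was not tested.

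**Figure D4:**
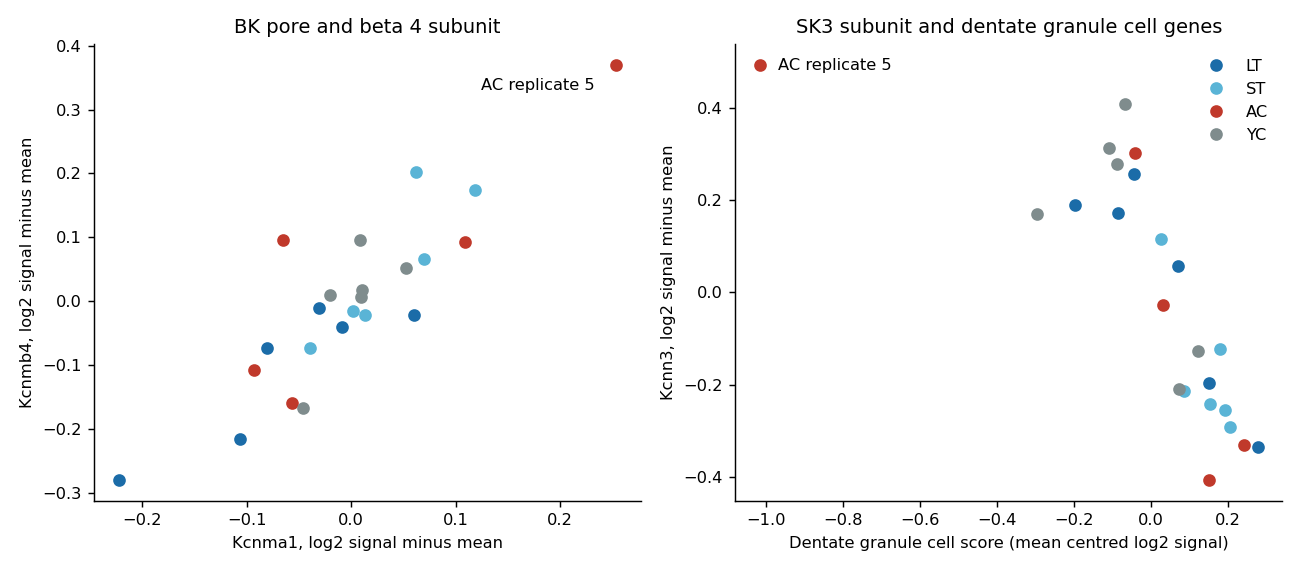
Left, Kcnmb4 against Kcnma1, both as log2 signal minus the mean of 23 arrays; right, Kcnn3 on the same scale against the dentate granule cell score. Points are arrays coloured by LT, ST, AC and YC. The left panel has r = 0.88 and the right r = -0.75, and AC replicate 5 lies apart in both.

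Further scores passed for Kcnn3 within groups. For thalamus genes (Prkcd and Slc17a6, 2 of 4), r was 0.70 (permutation p = 0.00028, adjusted p = 0.0052) and rho 0.70 (permutation p = 0.00019, adjusted p = 0.0039). It was 0.68 without the 2 farthest arrays and 0.89 without AC replicate 5. The thalamus score ran from -0.78 to 0.04 in ST and from -0.46 to 0.52 in YC. Its part in the ST minus YC value of Kcnn3 was not tested. For genes of neurons in general, r was -0.65 (permutation p = 0.001, adjusted p = 0.01) and rho -0.67 (permutation p = 0.0008, adjusted p = 0.013), with r = -0.64 without the 2 farthest. For CA1 pyramidal cells, r was -0.60 (permutation p = 0.00018, adjusted p = 0.004) and rho -0.62 (permutation p = 0.002, adjusted p = 0.024), with r = -0.54 without the 2 farthest. For oligodendrocyte precursors (Pdgfra and Cspg4), r was 0.54 (permutation p = 0.0067, adjusted p = 0.042) and rho 0.47 (permutation p = 0.024, adjusted p = 0.12). Over all arrays this relation depends in part on a few arrays, as r was 0.33 without the 2 farthest and 0.40 without AC replicate 5. Within groups it was 0.78 (adjusted p = 0.0082), and 0.71 when AC replicate 5 was also left out. Of the cell type scores, Kcnma1 passed within groups with that of thalamus alone (r = -0.72 over all arrays, permutation p = 3e-05, adjusted p = 0.0011, rho = -0.74, permutation p = 6e-05, adjusted p = 0.0017). That relation stood at -0.70 within groups (adjusted p = 0.009) and at -0.66 without the 2 farthest arrays. Kcnma1 also went with the score of neurons in general over all arrays (r = 0.59, permutation p = 0.0033, adjusted p = 0.023, rho = 0.72, permutation p = 0.00021, adjusted p = 0.0039), though not within groups (r = 0.58, adjusted p = 0.12). Without AC replicate 5 r was 0.92, and 0.90 within groups, and without the 2 farthest arrays r was 0.37. With the oligodendrocyte score Kcnma1 had r = -0.67 over all arrays (permutation p = 0.0013, adjusted p = 0.012), and -0.27 without the 2 farthest. With the CA3 pyramidal cell score it had r = 0.57 (permutation p = 0.0042, adjusted p = 0.028). Neither passed within groups (r = -0.74 and 0.57, adjusted p = 0.051 and 0.087). Kcnmb4 went with the thalamus score over all arrays (r = -0.66, permutation p = 0.00052, adjusted p = 0.0073), though not within groups (r = -0.61, adjusted p = 0.052). So it did with the oligodendrocyte score (r = -0.64, permutation p = 0.0021, adjusted p = 0.016), again not within groups (r = -0.68, adjusted p = 0.078). With the neuron score Kcnmb4 had r = 0.48 (permutation p = 0.021, adjusted p = 0.1), and 0.75 without AC replicate 5. In all, 9 of 112 relations passed within groups and 18 over all arrays.

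Kcnn1 (SK1) had the narrowest range of the SK genes, with a ratio of highest to lowest signal of 1.35, beside 1.48 for Kcnn4 and 1.86 for Kcnn3. Its signal was 257, 263.5 and 290 in LT (lowest, median and highest), 256, 261.5 and 270 in ST, 224, 229, 246, 252 and 302 in AC, and 251, 258 and 286 in YC. In AC, 3 of 5 arrays lay below all YC arrays and 1 above. AC minus YC was -0.07 (interval -0.18 to 0.05, adjusted p = 0.442), and without AC replicate 5 it was -0.14 and passed (adjusted p = 0.033). LT minus AC was 0.10 (interval -0.01 to 0.22, adjusted p = 0.451) and ST minus AC was 0.08 (interval -0.04 to 0.19, adjusted p = 0.677).

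Kcnn4, the intermediate-conductance channel best known from blood and immune cells, was dim. It read 68, 77 and 80 in LT (lowest, median and highest), 60, 73.5 and 81 in ST, 62, 65, 70, 78 and 88 in AC, and 68, 78.5 and 89 in YC, with wide overlap. Its largest difference in size was ST minus YC, at -0.14 (interval -0.32 to 0.04, adjusted p = 0.363), and AC minus YC was -0.13 (interval -0.32 to 0.06, adjusted p = 0.368).

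The genes around these channels were examined as lists of BK partners and relatives (7 of 8 tested), proteins bound to SK channels (8 of 9), other currents and sensors of the afterhyperpolarization (6 of 10), its calcium sources (13 of 13), and receptors and kinases that set it (11 of 13). Between AC and YC, where 9.75% of all tested probe sets were called, BK partners had 1 call higher and 1 lower. SK-bound proteins had 0 and 1, receptors and kinases 0 and 1, and the other lists none. No list was tested against that share, so these calls are given as single genes only. Lrrc38, a BK gamma subunit in mammals, was 50.8 ± 4.8 in AC and 41.5 ± 3.7 in YC (SD, n = 5 and 6; log2 fold change 0.29, adjusted p = 0.0399 from limma), close to the signal minimum. Lrrc52, another gamma subunit, was 80.0 ± 7.3 in AC and 94.8 ± 6.3 in YC (log2 fold change -0.25, adjusted p = 0.0271). Ppp2ca, a catalytic subunit of the phosphatase PP2A, which binds SK2 channels and raises their calcium sensitivity by dephosphorylating calmodulin, was 3762 ± 113 in AC and 4039 ± 87.0 in YC (log2 fold change -0.10, adjusted p = 0.0111). Prkacb, a catalytic subunit of the cAMP-dependent kinase that shuts down the slow afterhyperpolarization, was 2321 ± 126 in AC and 2590 ± 167 in YC (log2 fold change -0.16, adjusted p = 0.0281). Lrrc38 missed the threshold when AC replicate 1, 2, 4 or 5 or YC replicate 2, 3 or 5 was left out (adjusted p = 0.0532 to 0.0791). Lrrc52 missed it without AC replicate 2, 3 or 4 or YC replicate 1, 2 or 6 (0.0513 to 0.0687), and Prkacb without AC replicate 3 or 4 or YC replicate 2 or 3 (0.0641 to 0.0788).

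For ST against AC no gene of the 5 lists was called, and for LT against AC, the averaged treated groups against AC, ST against YC and LT against YC the 1 call in these lists was Fkbp1b itself, higher in the treated rats. For LT against ST none was called. The receptors and kinases had a positive difference in 10 of 11 genes for ST against AC (median 0.08, beside 0.0100 over all probe sets). For LT against AC it was positive in 8 of 11 (median 0.04, beside -0.0031). For AC against YC it was negative in 10 of 11 (median -0.09, beside -0.0062). The share of each sign over all probe sets was not counted. These comparisons share the AC arrays.

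The genes whose log2 signal went most closely with each channel gene over 23 arrays are given as a description, for channel genes with a mean signal of at least 100. For Kcnma1 they were Dync1i1 (r = 0.95), Unc5a (0.93) and Cdkl2 (0.93), and for Kcnmb4 Rfng (0.88), Cacna1i (0.88) and Cdkl2 (0.88), so Cdkl2 stands on both lists. For Kcnn3 they were 6330403K07Rikl (r = 0.95), Adra2a (0.91) and Dcx (0.91). For Kcnmb1 they were Nek2 (r = 0.89), Txndc2 (0.86) and Col5a1 (0.85), and with group means removed r was 0.75, 0.82 and 0.78. For Kcnn1, r was lower, with Tsr1 (r = 0.71), Susd3 (0.71) and Fchsd1 (0.70). All points share the same arrays and the same normalization.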

How the data were processed

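Dorsal hippocampal RNA of 23 rats (6 LT, 6 ST, 5 AC and 6 YC) was measured on 1 array each. The authors deposited RMA signal intensities by probe set, unlogged and rounded, from 4 to 20673, with 758 blanks. The study's methods set values far from the group mean to missing. The submitters' processing notes name Partek, whose version is not given in the sources used here, nor is the genome build. Depth does not apply to arrays.

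Signals were taken to log2. Of 29211 probe sets, 15307 had 1 gene symbol, 323 had several and 13581 had none. The 13339 single-symbol probe sets that reached a signal of 40 on 4 or more arrays were fitted in limma 3.58.1 (R 4.3.3), with 1 mean for each of the 4 groups. Benjamini-Hochberg adjustment covered all of them, at 0.05. In the gene lists, a gene with several probe sets was represented by the brightest. Correlations over arrays used 100000 permutations (scipy 1.17.1), pooled and within groups. The limma script was checked on simulated data. Alternatives left out each array in turn, or used the one-way analysis of variance of the study's methods but with adjusted p values. Others changed the normalization or the signal filter, or added array weights, a covariate or the replicate number as a block. Further ones fitted the compared groups by themselves, or used unadjusted p values.

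The text names every member, up to 4 called genes of each pathway list, and the 3 genes most like each member with a mean signal of at least 100. Members and lists were chosen with earlier results of these data known. Of the genes on the member and pathway lists, 9 had no named probe set. No array duplicated another. Behavior and protein measurements were not analysed here.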

Additional observations from a re-analysis of the deposited data

Results flagged for a closer look

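Within groups of 5 or 6 arrays, 2 of the 28 sets of signals (7 genes in 4 groups) held a value far from the rest by Dixon's ratio at the 95% level, and chance flags about 1 set in 20. Kcnmb1 was 177 on AC replicate 5, where the other 4 AC arrays ran from 122 to 130. Kcnmb4 was 359 on YC replicate 5, where the other 5 YC arrays ran from 405 to 431.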

How the results depend on the processing

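Of 2150 recomputed log2 fold changes of single genes, 2057 kept their direction and side of the threshold, 33 no longer passed it, 4 passed it anew and 56 changed sign, all 56 from differences that had not passed. The Kcnmb1 call for ST against YC stood in all 38 alternatives. Calls were lost for Lrrc38 in 11 of 37 alternatives, Lrrc52 in 10 of 37, Ppp2ca in 3 of 38, Prkacb in 8 of 38 (AC against YC), and for Fkbp1b in 1 of 38 (treated groups averaged against AC, adjusted p = 0.0665 without the choroid-rich arrays). The cause was not tested.

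The count of SK and BK genes called for AC against YC, 0 as reported, was 1 with the choroid plexus score as a covariate, 1 with array weights and 0 to 2 with single arrays left out. For the F test over the 4 groups the count, 1 as reported, was 0 in the analysis of variance of unlogged signals, 2 after quantile normalization, 0 without the arrays with a choroid plexus score over 0.5, and 0 to 2 with single arrays left out. At an unadjusted p under 0.05 the count was 2 for AC against YC, 1 for ST against AC, 2 for LT against AC, 1 for the averaged treated groups against AC, 3 for LT against ST, 2 for ST against YC and 2 for the F test over the 4 groups. Over all probe sets, with single arrays left out, the 1300 called between AC and YC became 796 to 1868, the 0 between ST and AC 0 to 65, the 10 between LT and AC 2 to 104, the 4 between the averaged treated groups and AC 1 to 120, the 1 between LT and ST 1 to 7, the 553 between ST and YC 289 to 1012, the 138 between LT and YC 48 to 378, and the 728 of the F test 383 to 1261.

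Signs of log2 fold changes turned as follows. In the analysis of variance of unlogged signals Kcnn3 was -0.0086 for LT against AC. With array medians made equal, ST against AC was 0.0075 for Kcnn4 and 0.014 for Kcnmb4, and LT against ST was -0.0097 for Kcnn1. Quantile normalization put Kcnma1 at -0.0081 for ST against AC. With the RNA integrity number as a covariate, Kcnn4 was 0.0047 and Kcnmb4 0.021 for ST against AC, Kcnn3 -0.016 for LT against AC, and Kcnn1 -0.036 for LT against ST and -0.014 for LT against YC. Without the arrays with a choroid plexus score over 0.5, Kcnn3 was 0.015 for AC against YC and -0.31 for LT against AC, Kcnma1 -0.065 for ST against AC and 0.0044 for LT against YC, Kcnn4 -0.026 for LT against AC and -0.049 for the averaged treated groups, and Kcnmb2 0.024 for LT against YC. With that score as a covariate, Kcnma1 was -0.083 for ST against AC and 0.0082 for LT against YC, and Kcnmb2 0.016 for LT against YC. Under array weights, Kcnma1 was -0.026 for AC against YC, Kcnn4 0.029 and Kcnmb4 0.025 for ST against AC, and Kcnn3 0.053 and Kcnma1 0.0088 for the averaged treated groups.

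With single arrays left out, the ranges that crossed 0 were as follows. For AC against YC, they ran from -0.029 to 0.058 for Kcnma1 and -0.022 to 0.11 for Kcnmb4. For ST against AC, they ran from -0.064 to 0.063 for Kcnn4, -0.023 to 0.064 for Kcnma1, -0.13 to 0.0030 for Kcnmb2 and -0.057 to 0.075 for Kcnmb4. For LT against AC, the range ran from -0.085 to 0.14 for Kcnn3. For the averaged treated groups against AC, they ran from -0.18 to 0.044 for Kcnn3, -0.022 to 0.10 for Kcnn4, -0.074 to 0.013 for Kcnma1 and -0.092 to 0.042 for Kcnmb1. For ST against YC, the range ran from -0.0031 to 0.035 for Kcnn1.

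With the replicate number as a block, Kcnn4 was 0.0011 for ST against AC, and no call of an SK or BK gene changed. The numbers did not pair the rats. Deviations of same-numbered arrays in different groups correlated at -0.0093 on average (33 pairs), those of other arrays at 0.0018 (165 pairs), and 2 of 23 arrays correlated best with one of their own number.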
